A study of Mus musculus with 10 samples.

Results

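The samples described here are the 5 embryos without a mutant allele in a mouse study of Polr1a, the gene for the largest RNA polymerase I subunit. They were chosen by their genotype label, wt, and split by the first number in their titles: 3 samples have titles that begin with Polr_2138 and 2 have titles that begin with Polr_2048. The other 5 of the 10 samples carry a null allele (2 samples, all in set Polr_2048) or the missense allele p.C1559F (3 samples, all in set Polr_2138). RNA was extracted from the telencephalon, the part of the forebrain that forms the cerebral cortex and the basal ganglia, at embryonic day 12 (E12) in all groups. Strain, litter and the meaning of the title numbers are not stated in the labels, so set, litter, strain and handling cannot be told apart. The labels do not say whether embryos were pooled, and p-values measure only the spread between these samples. Samples are named by title set and second title number: Polr_2048 wild types 1 and 3, and Polr_2138 wild types 1, 2 and 4.

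At E12 the walls of the telencephalon consist mainly of dividing radial glia and neural progenitors, and the first neurons are being added. A difference in progress of a day or less, in the amount of midline tissue, meninges or blood left in a dissection, or in the DNA sequence of the parents can each alter bulk RNA levels. Mouse genomes also hold many processed pseudogenes, which are copies of messenger RNAs pasted back into DNA. Abundant messages such as those of ribosomal proteins have many such copies, and some are almost letter for letter the same as the parent gene.

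Levels are log2 values on the scale of CPM (counts relative to the sum of a sample), with a common floor of -3.16, the value listed for a gene without signal. Telencephalic markers were present in all 5 wild types: Emx1, a transcription factor of the dorsal telencephalon, was at 5.62 and 5.79 in set Polr_2048 and at 5.90, 5.84 and 5.76 in set Polr_2138. Hoxa3 of the hindbrain was the only gene measured of 20 Hox genes and lay between -1.90 and -0.87. Both sexes were present in each set by the levels of 4 Y-linked genes, which were low in Polr_2048 wild type 1 and Polr_2138 wild type 2. Pearson correlations over genes were 0.951 to 0.961 within set Polr_2138, 0.958 within set Polr_2048 and 0.947 to 0.957 between the sets. Polr1a itself stood at 5.38 and 5.38 in set Polr_2048 and at 5.62, 5.51 and 5.64 in set Polr_2138 (log2 difference 0.21, SE 0.18, limma adjusted p = 0.859).

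Between the wild types of the 2 sets, 14 of 14796 genes differed at a limma adjusted p under 0.05, which is 0.0946% of genes, 7 higher and 7 lower in set Polr_2138. At an unadjusted p under 0.05 there were 1090 genes, where 739.8 are expected by chance. Of these, 731 were higher in set Polr_2138 (4.94% of genes) and 359 were lower (2.43%). By the reference annotation, 8 of the 14 called genes are pseudogenes and 6 are protein coding. They lie on 10 chromosomes, with 3 each on chromosomes 3 and 14 and 0 on chromosome 6, where Polr1a lies. Of the tested genes, 701 lie on chromosome 3, 502 on chromosome 14 and 688 on chromosome 6. With only 14 genes called, nothing is read from these counts. A total of 12 of the 14 belong to families of near-identical transcripts (at least 95% identity over at least 80% of the longest transcript of one gene), which hold 508 genes or 3.43% of all genes. The 2 others are Phgdh and Hdac5.

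The copies are shown here because single bases separate the genes that carried the largest differences. Each pair of 60-base stretches comes from the coding sequence of the parent gene and the matching stretch of its copy, from the GENCODE M21 transcripts of build GRCm38. Differing bases are in capitals, and positions count from 1 at the A of the parent's start codon. The reference is not the build named by the labels (GRCm39), so no coordinates are given, and the embryos' own sequences were not read.

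Rpsa, which encodes a protein of the small ribosomal subunit, and Rpsa-ps10 differ by 6 substitutions over 885 coding bases (99.32% identity), among them T210C and C219T in bases 181 to 240.
Rpsa: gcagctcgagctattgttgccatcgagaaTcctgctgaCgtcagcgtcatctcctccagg
Rpsa-ps10: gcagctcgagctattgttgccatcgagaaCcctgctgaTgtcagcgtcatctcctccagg
Rps3a1, also of the small subunit, and its copy Rps3a2 differ by 4 substitutions over 792 bases (99.49%). T216C, in bases 187 to 246, is also found in the copy Rps3a3.
Rps3a1: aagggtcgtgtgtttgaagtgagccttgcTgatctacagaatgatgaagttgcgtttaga
Rps3a2: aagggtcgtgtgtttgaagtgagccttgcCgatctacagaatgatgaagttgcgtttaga
Rps7, another small-subunit gene, and Gm6472 differ by 3 substitutions over 582 bases (99.48%), with T26G and G48A in bases 19 to 78.
Rps7: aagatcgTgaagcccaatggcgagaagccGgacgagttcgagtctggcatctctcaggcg
Gm6472: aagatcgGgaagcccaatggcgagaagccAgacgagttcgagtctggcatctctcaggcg
Rpl15, of the large subunit, and Gm10020 differ by 2 substitutions over 612 bases (99.67%), with A156G in bases 127 to 186.
Rpl15: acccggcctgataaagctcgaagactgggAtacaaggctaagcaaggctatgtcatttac
Gm10020: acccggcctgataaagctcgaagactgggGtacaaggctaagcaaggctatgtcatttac
Capza1, which encodes a subunit of the protein that caps actin filaments, and Gm3608 differ by 3 substitutions and 1 gap over 858 bases (99.53%), with T543C in bases 514 to 573.
Capza1: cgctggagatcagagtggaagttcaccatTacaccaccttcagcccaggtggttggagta
Gm3608: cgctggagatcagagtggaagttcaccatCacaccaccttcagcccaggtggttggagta
Over windows of 50 bases, 74.64% of the Rpsa windows were identical in Rpsa-ps10. The share was 76.72% for Rps3a1 against Rps3a2, 81.61% for Rps7 against Gm6472, 82.95% for Rpl15 against Gm10020 and 76.27% for Capza1 against Gm3608. How the authors assigned reads that match more than 1 gene is not given in any source used here, so the level of each such gene is uncertain.

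The Rpsa pair held the largest difference of all genes. Rpsa-ps10 was at 8.82 and 8.79 in the Polr_2048 wild types and at -0.84, -2.38 and -1.88 in the Polr_2138 wild types (difference -10.51, SE 0.48, limma adjusted p = 4.2e-06). Its parent Rpsa was at 8.76 and 8.86 in set Polr_2048 and at 9.65, 9.51 and 9.93 in set Polr_2138 (difference 0.89, SE 0.12, limma adjusted p = 0.0151). The copy therefore stood as high as the parent in one set and near the floor in the other, while the parent was higher where the copy was low. Summed, the pair differed by -0.11 (SE 0.11, limma adjusted p = 0.879), and Rpsa-ps10 held 51.1% and 48.9% of the pair's level in the Polr_2048 wild types and at most 0.0556% in the Polr_2138 wild types.

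The Rps3a family was alike. Rps3a2 was at 7.56 and 7.49 in set Polr_2048 and at -2.49, -1.49 and -2.37 in set Polr_2138 (difference -9.64, SE 0.52, limma adjusted p = 1.06e-05). Rps3a3 was at 4.48 and 4.01 in set Polr_2048 and at the floor of -3.16 in all 3 wild types of set Polr_2138 (limma adjusted p = 0.000205). The parent Rps3a1 was at 8.75 and 8.53 against 9.60, 9.54 and 9.66 (difference 0.96, SE 0.11, limma adjusted p = 0.00582). None of these 3 genes overlapped between the sets, and both copies were lower where the parent was higher. The sum of the family differed by 0.37 (SE 0.10), which missed the threshold (limma adjusted p = 0.521).

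In the Rps7 pair the sets were the other way round. Gm6472, named Rps7-ps3 in RefSeq, was at 0.67 and 0.12 in set Polr_2048 and at 7.82, 7.56 and 7.71 in set Polr_2138 (difference 7.30, SE 0.75, limma adjusted p = 0.00317). Rps7 was at 9.17 and 9.27 against 8.51, 8.32 and 8.68, a difference of -0.72 (SE 0.14) that missed the threshold (limma adjusted p = 0.231). The copy held 0.255% and 0.158% of the pair's level in the Polr_2048 wild types and 38.3%, 37.0% and 33.8% in the Polr_2138 wild types. The sum of the pair differed by -0.07 (SE 0.13, limma adjusted p = 0.946).

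Among the wild types, Capza1 and Gm3608 differed between the sets and also within set Polr_2048. Gm3608 was at 6.66 and 6.01 in set Polr_2048 and at 2.11, 2.97 and 1.72 in set Polr_2138 (difference -4.07, SE 0.30, limma adjusted p = 0.000205). Capza1 was at 5.97 and 7.33 against 7.76, 7.89 and 7.84, a difference of 1.18 (SE 0.28) that missed the threshold (limma adjusted p = 0.457). Capza1 rests on single samples here: its difference was 0.50 without Polr_2048 wild type 1, and 1.86 without Polr_2048 wild type 3, where it passed (limma adjusted p = 0.000242). The copy's share of the pair was 61.6% in Polr_2048 wild type 1 and 28.5% in Polr_2048 wild type 3, and 1.37% to 3.15% in the Polr_2138 wild types. The sum of the pair differed by 0.28 (SE 0.12, limma adjusted p = 0.673).

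**Figure D1:**
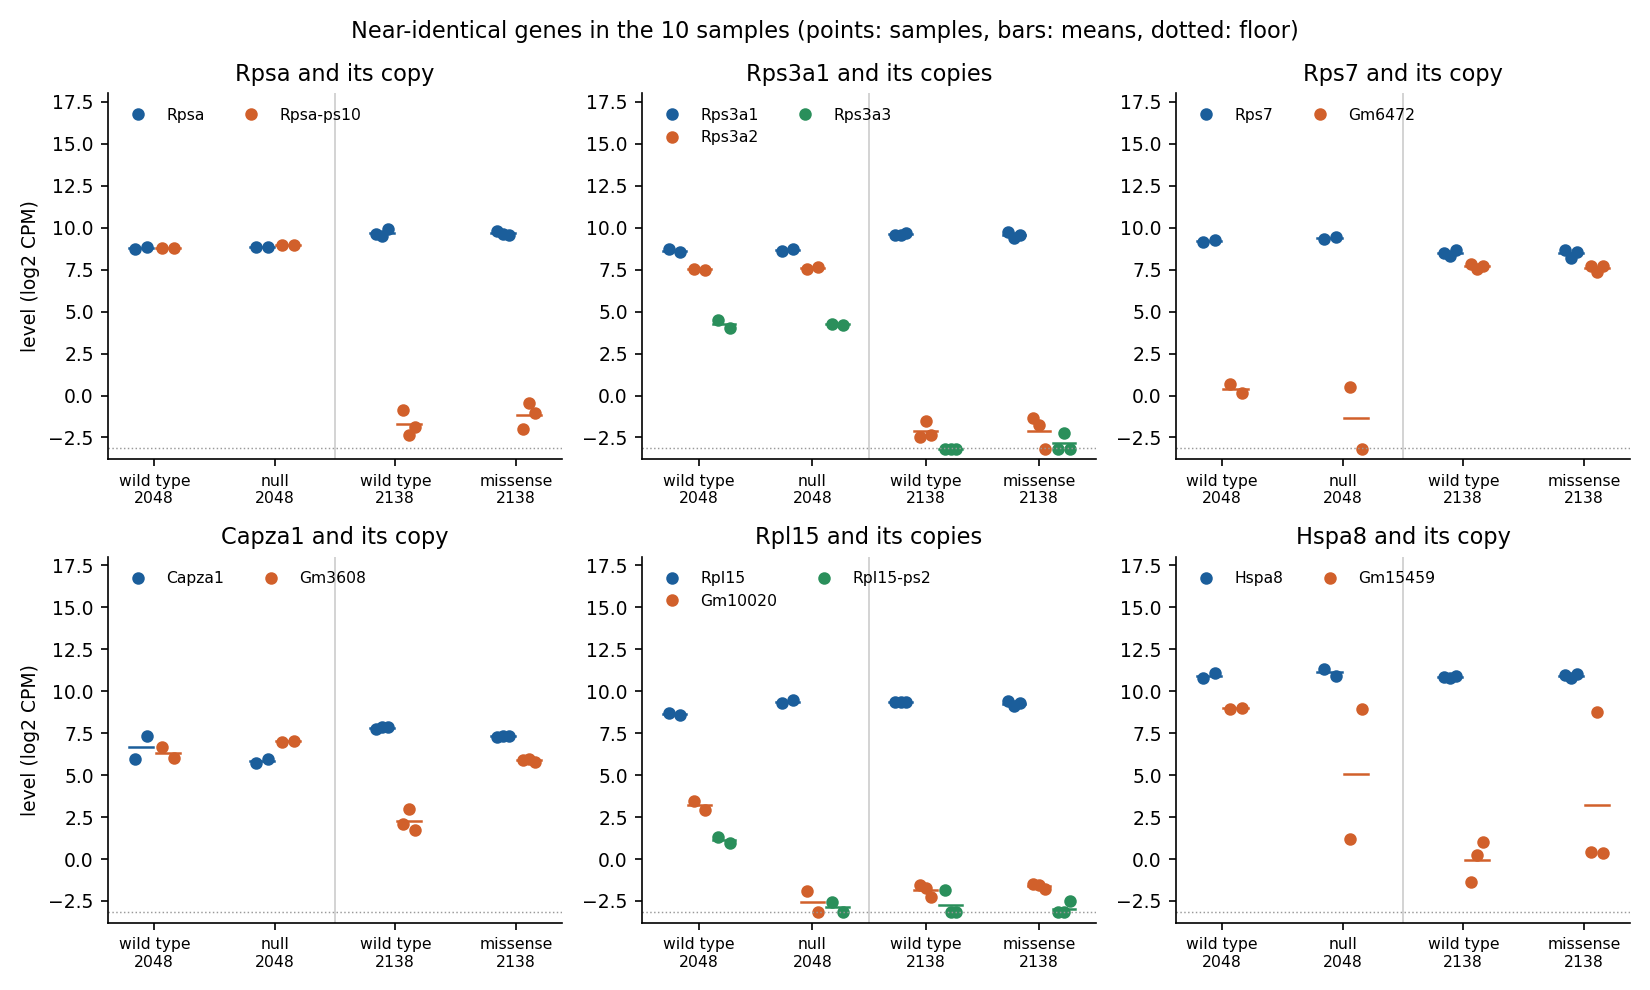
Log2 level of parent genes and their near-identical copies in all 10 samples, by genotype and title set, with points for samples, bars for group means and a dotted line at the floor of -3.16. Rpsa-ps10 and Rps3a2 are above 7 in every sample of set Polr_2048 and under 0 in every sample of set Polr_2138, whereas Gm15459, a copy of Hspa8, is split within the null and the missense group.

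The copies of Rpl15 held little of their family's level. Rpl15 was at 8.70 and 8.56 in set Polr_2048 and at 9.38, 9.38 and 9.37 in set Polr_2138 (difference 0.75, SE 0.10, limma adjusted p = 0.0151). Gm10020 was at 3.48 and 2.91 against -1.54, -1.72 and -2.27 (limma adjusted p = 0.033), which is 2.59% and 1.93% of the pair's level in the Polr_2048 wild types. The family's sum differed by 0.71 (SE 0.10), nearly as much as Rpl15 alone, and missed the threshold at a limma adjusted p = 0.111. The 2 null samples of set Polr_2048 did not share this state: their Rpl15 levels were 9.27 and 9.48, and Gm10020 was at -1.91 and at the floor.

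A pair of copies called at low levels had parents that did not pass the test. Gm7334, whose coding sequence is 100% identical to that of Btg3, an antiproliferative gene, was at the floor in both Polr_2048 wild types and at 1.66, 1.59 and 1.51 in set Polr_2138 (limma adjusted p = 0.00547). Btg3 itself was at 4.20 and 4.48 against 4.11, 4.61 and 3.89, with overlapping sets. Gm11868, a copy of the oxidoreductase gene Cyb5r4, was at the floor in both Polr_2048 wild types and at 1.61, 1.31 and 1.42 in set Polr_2138 (limma adjusted p = 0.0107). Both null samples of set Polr_2048 were at the floor for Gm11868, but at 0.69 and 2.35 for Gm7334. Cyb5r4 was at 6.28 and 6.30 against 6.11, 5.94 and 5.95 (difference -0.29, limma adjusted p = 0.525), and its sets did not overlap. Gm3558, named after its values were seen, belongs to a family of 33 predicted genes. It was at 3.35 and 3.17 in the Polr_2048 wild types and at 0.27, 0.07 and 0.46 in the Polr_2138 wild types (difference -3.0, SE 0.43, limma adjusted p = 0.033). The null samples of set Polr_2048 were at 0.53 and 0.35 for Gm3558. The sum of that family differed by -0.60 between the wild types (SE 0.12, limma adjusted p = 0.463).

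Summing each of the 195 families into 1 value left 14483 genes or families, of which 0 passed a limma adjusted p of 0.05 and 1054 had an unadjusted p under 0.05. This sum was chosen after seeing the data.

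**Figure D2:**
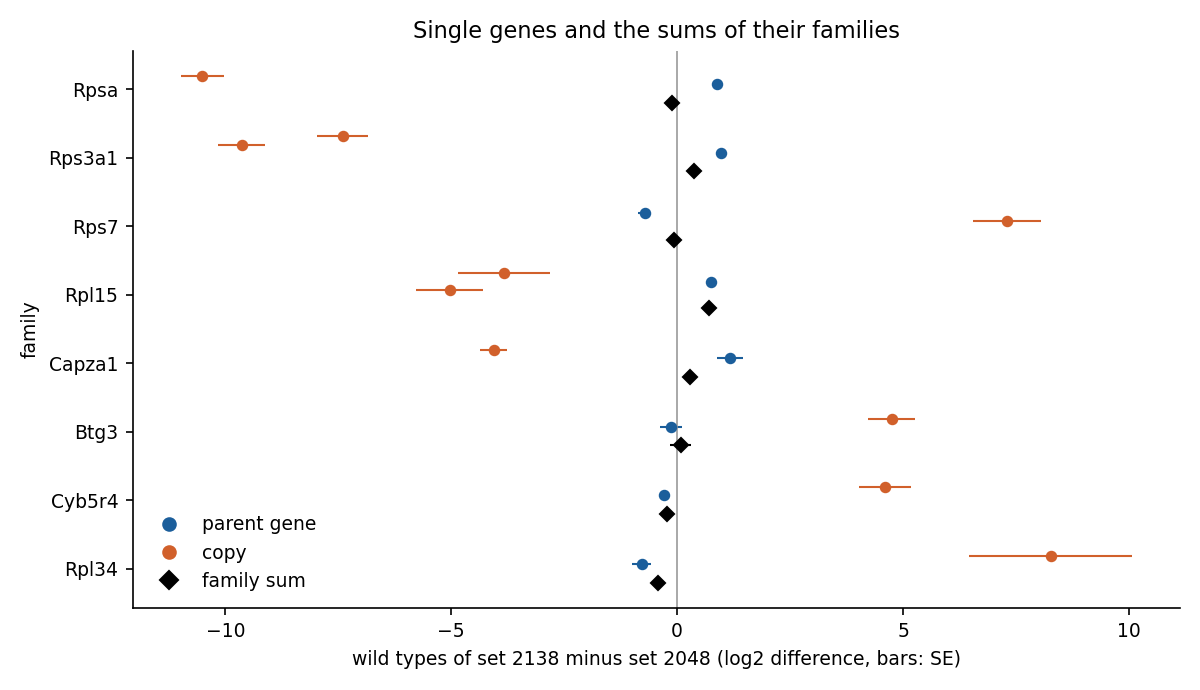
Log2 difference between the wild types of set Polr_2138 and set Polr_2048, with SE bars, for parent genes, their copies and the family sum. The copies lie between -10.51 and 8.27, and the sums lie between -0.43 and 0.71.

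Some copies were on in one set and off in the other among the wild types but split within at least 1 mutant group. Rpl34-ps1 was at -3.16 and -1.61 in the Polr_2048 wild types and at 5.91, 5.83 and 5.91 in the Polr_2138 wild types (difference 8.27, SE 1.80, limma adjusted p = 0.372). The null samples were at -3.16 and 5.86, and the missense samples, which were not split, at 7.19, 6.62 and 7.01. Gm15459, named after its values were seen, was at 8.96 and 9.01 in the Polr_2048 wild types and at -1.39, 0.23 and 1.04 in the Polr_2138 wild types, while the null samples were at 1.18 and 8.94 and the missense samples at 0.44, 8.79 and 0.35. Its parent Hspa8, a chaperone gene, stayed between 10.76 and 11.32 in all 10 samples. With the null samples split for both copies and the missense samples for Gm15459, neither copy passed the test (limma adjusted p = 0.472 for Gm15459).

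Phgdh, the first enzyme of serine synthesis and a gene of radial glia, was the called gene outside these families with the smaller p. It was at 7.48 and 7.48 in the Polr_2048 wild types and at 6.68, 6.63 and 6.76 in the Polr_2138 wild types (difference -0.79, SE 0.09, limma adjusted p = 0.00748). In linear terms the Polr_2048 wild types were 1.73 times as high. The mutants gave the same split without sharing a sample: Phgdh was at 7.60 and 7.41 in the null and at 6.58, 6.72 and 6.67 in the missense samples (difference -0.85, SE 0.09, limma adjusted p = 0.00396). All 6 samples of set Polr_2138 thus lay below all 4 of set Polr_2048. Both SEs come from the same fit with a shared estimate of spread, so the p-values of these comparisons are not independent. Of the 24 genes measured among Atf4 targets and serine synthesis genes, Phgdh alone was called, 12 were higher and 12 lower, and the median difference was 0.01. Without Polr_2138 wild type 1 or Polr_2048 wild type 1 Phgdh missed the threshold (limma adjusted p = 0.0574 and 0.0626), as it did with families summed (0.051) and without a variance trend (0.0711), and its difference stayed between -0.83 and -0.76.

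Hdac5, a class II histone deacetylase abundant in neurons, was at 6.44 and 6.68 in set Polr_2048 and at 7.15, 7.22 and 7.22 in set Polr_2138. Its difference was 0.63 (SE 0.09, limma adjusted p = 0.0394), and the sets did not overlap. The missense minus null difference was 0.17 (limma adjusted p = 0.726), and the difference between these 2 differences was -0.47 (SE 0.13, limma adjusted p = 0.985). Hdac5 kept its call in 1 of the 10 fits that left out 1 sample, with adjusted p of up to 0.269 without Polr_2048 wild type 1.

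**Figure D3:**
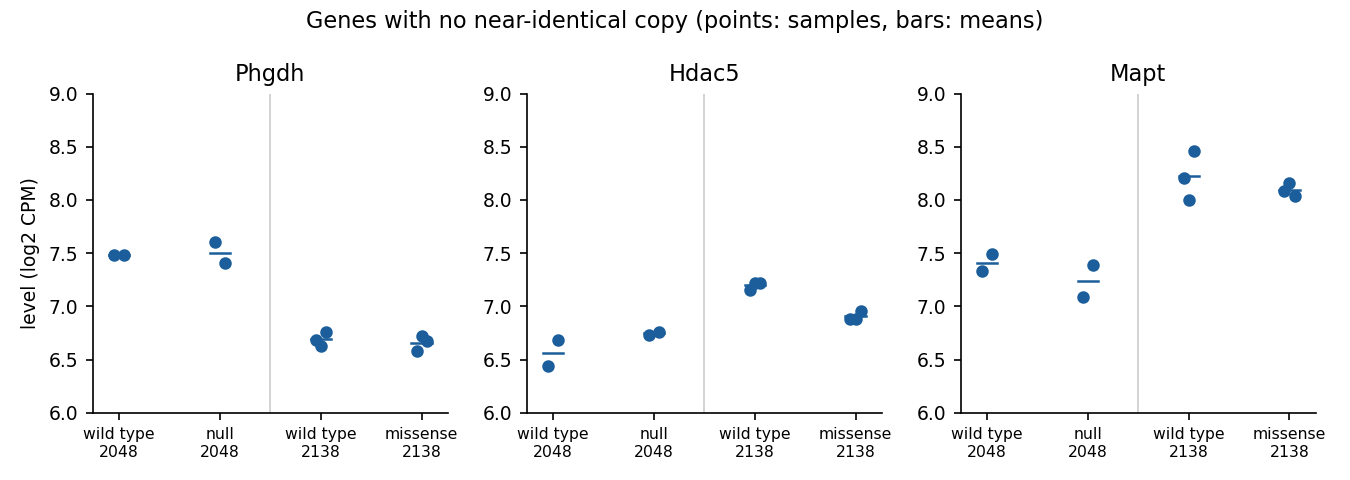
Log2 level of Phgdh, Hdac5 and Mapt, which have no near-identical copy, in all 10 samples by genotype and title set. Phgdh lies between 6.58 and 6.76 in set Polr_2138 and between 7.41 and 7.60 in set Polr_2048, in wild types and mutants alike.

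The missense and null samples differ in title set as the wild types do, and in allele, and share no sample with them. Both comparisons come from the same fit and share its estimate of spread, so a gene called in both is not an independent repeat. Missense minus null called 21 of 14796 genes (0.142%), 15 higher and 6 lower, and the mutants fitted without the wild types gave 20 calls, 8 higher and 12 lower. Of the 14 genes called between wild types, 8 were among these 21, and all 8 had the same sign: Rpsa-ps10, Rpsa, Rps3a1, Rps3a2, Rps3a3, Gm6472, Gm11868 and Phgdh. For 10 of the 14, all samples of one set lay apart from all samples of the other, which held for 3.07% of all genes; the 14 were picked for differing between the wild types among these samples, so nothing is read from that count. Rpsa-ps10 differed by -10.12 and Gm6472 by 8.92 between missense and null, against -10.51 and 7.30 between wild types. Gm3608 differed by -1.13 (limma adjusted p = 0.253), Gm7334 by 0.87, Rpl15 by -0.11, Gm10020 by 0.93 and Gm3558 by 0.36. The test of the difference between both comparisons called 0 of the 14 genes, which does not show that the comparisons were equal. This difference was 2.93 (SE 0.43) for Gm3608, 5.97 (SE 1.04) for Gm10020 and -3.87 (SE 0.74) for Gm7334. It was 3.36 (SE 0.61) for Gm3558 and -0.86 (SE 0.14) for Rpl15, and limma adjusted p for these genes was 0.148 to 0.401.

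The progress of the tissue was described with lists of neuronal, progenitor and cell cycle genes. Neuronal genes were mostly higher in set Polr_2138: of 34 pan-neuronal genes, 33 were higher, with a median difference of 0.24 against 0.02 over all genes, and 0 were called. In 22 of the 34 (64.7%) all 3 wild types of set Polr_2138 lay above both of set Polr_2048, which held for 13.7% of all genes. Mapt, the microtubule protein tau, came nearest to a call, at 7.33 and 7.49 in set Polr_2048 against 8.21, 8.0 and 8.46 in set Polr_2138 (difference 0.82, SE 0.13, limma adjusted p = 0.0745). Between missense and null Mapt differed by 0.85 and was called (limma adjusted p = 0.0407). Syt4, a synaptotagmin of secretory vesicles, was at 5.08 and 5.33 against 5.93, 5.68 and 6.0 (limma adjusted p = 0.488). Stmn4, a regulator of microtubules, was the 1 gene of the list with a lower value in set Polr_2138 (difference -0.29). Differences in the list's best known members were small, at 0.16 for Tubb3 and 0.22 for Dcx.

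Genes of the cell cycle had lower values in set Polr_2138. Of 30 genes of G2 and mitosis, all 30 were lower, with a median of -0.20, and of 32 genes of S phase and replication 31 were lower, with a median of -0.17. The exception was Pole, the catalytic subunit of a replicative DNA polymerase, at 0.14. All 3 wild types of set Polr_2138 lay below both of set Polr_2048 in 13 of the 30 (43.3%) and in 20 of the 32 (62.5%), against 9.76% of all genes, and 0 genes of either list were called. Cdc45, a part of the replicative helicase, was at 5.65 and 5.60 against 5.12, 5.09 and 5.09 (difference -0.52, SE 0.12, limma adjusted p = 0.442). Ect2, which acts in cytokinesis, was at 7.30 and 7.33 against 6.95, 6.84 and 7.02 (difference -0.38, limma adjusted p = 0.51). Neither gene overlapped between the sets.

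Radial glia and progenitor markers as a list barely differed, 18 of 29 genes being lower, at a median of -0.06, and Phgdh was its 1 called gene. Hes5, a Notch target that keeps progenitors undifferentiated, was at 7.0 and 6.62 in set Polr_2048 and at 6.40, 6.20 and 5.97 in set Polr_2138 (difference -0.62, limma adjusted p = 0.442). Of 29 genes of intermediate progenitors and newborn cortical neurons 23 were higher in set Polr_2138, with a median of 0.13, or 0.24 without Polr_2048 wild type 3. None of the 29 was called. Neurod6, a transcription factor of cortical neurons, was at 5.30 and 6.04 against 6.51, 6.33 and 6.73, a difference of 0.85 (limma adjusted p = 0.557), or 0.48 without Polr_2048 wild type 1. Eomes of intermediate progenitors differed by 0.07 and Tbr1 of early neurons by 0.01. In bulk tissue, fewer cells of a type and less RNA per cell cannot be told apart.

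Genes known to fall or rise as telencephalic progenitors age were set beside these lists. Among early genes, 14 of 19 were lower in set Polr_2138, with a median of -0.20, and 8 of the 19 (42.1%) had all Polr_2138 wild types below both Polr_2048 wild types, against 9.76% of all genes. Hmga2, a chromatin protein of early progenitors, was at 7.96 and 8.02 against 7.48, 7.68 and 7.57 (difference -0.42, limma adjusted p = 0.488), and Lin28b, which blocks let-7 microRNAs, differed by -0.32. Its paralogue Lin28a had the opposite sign (0.91), at low levels of 1.03 to 2.76. Among genes of late progenitors and gliogenesis, 19 of 26 were higher, with a median of 0.27, and 5 of the 26 (19.2%) were apart, against 13.7% of all genes. The sets overlapped in this list's mean deviation from the mean of the 5 wild types. It was -0.16 in Polr_2138 wild type 2, against -0.04 in Polr_2048 wild type 1. Nfia, a switch towards gliogenesis, was at 6.59 and 7.06 against 7.44, 7.46 and 7.81 (difference 0.75, limma adjusted p = 0.472).

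**Figure D4:**
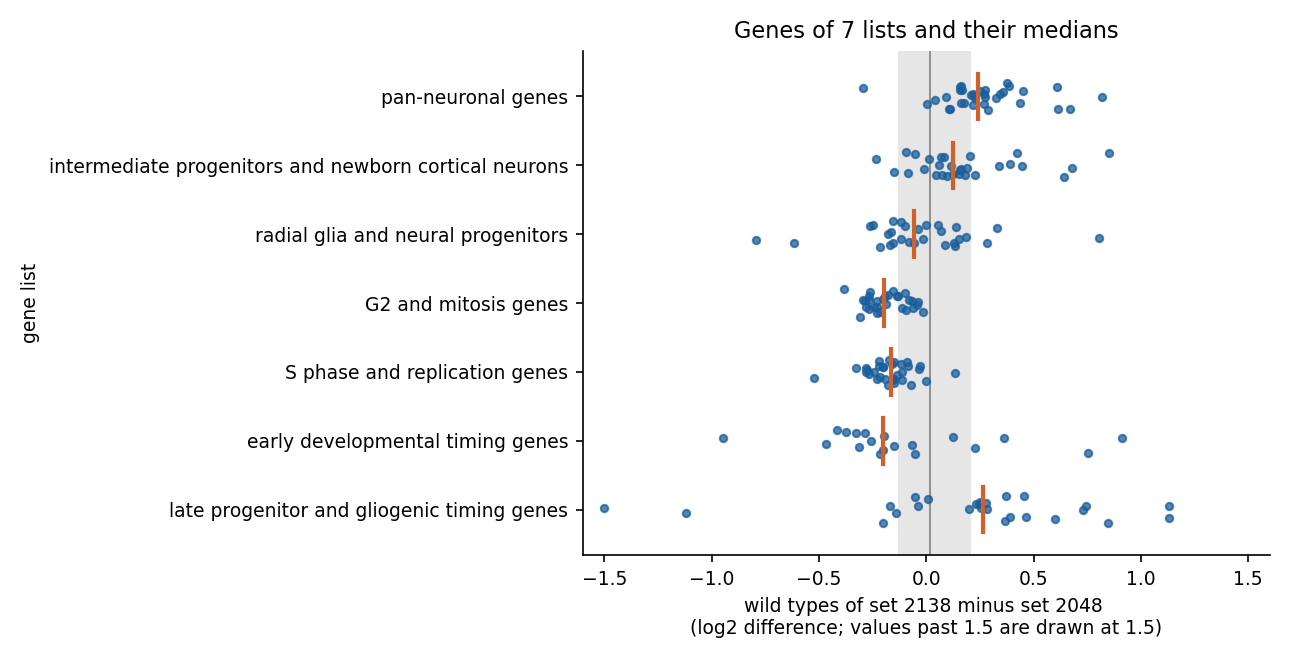
Log2 difference between the wild types of set Polr_2138 and set Polr_2048 for the genes of 7 lists (points) with each list's median (bar). The grey band holds the middle of all genes, from -0.13 to 0.20 (25th to 75th percentile). Outside it lie the medians of pan-neuronal (0.24), late (0.27), G2 and mitosis (-0.20), S phase (-0.17) and early genes (-0.20). Those of radial glia (-0.06) and of intermediate progenitors and newborn neurons (0.13) lie inside it.

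Across missense and null, the same lists had medians of 0.31 for pan-neuronal genes (32 of 34 higher), -0.13 for G2 and mitosis (27 of 30 lower), -0.13 for S phase (26 of 32 lower), -0.09 for early genes and 0.25 for late genes. The median over all genes was 0.00 there. All 3 missense samples lay above both null samples in 24 of the 34 pan-neuronal genes, against 13.2% of all genes. They lay below both in 11 of the 30 G2 and mitosis genes and in 3 of the 32 S phase genes, against 11.1% of all genes, so the share for S phase genes was near that of all genes. These samples differ in allele as well as title set, so the allele's part in these values cannot be told apart. The list of ventral telencephalon and GABAergic genes had a median of 0.01 between wild types, with 20 of 39 higher, or -0.15 without Polr_2048 wild type 1, and of 0.52 between missense and null.

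Red blood cells switch globins with developmental time. The definitive globins, made by later red cells, minus the embryonic globins stood on the log2 scale at -0.66 and -0.36 in the Polr_2048 wild types and at -0.25, -0.61 and -0.28 in the Polr_2138 wild types. The means differed by 0.13 with overlapping sets (exact 2-sided permutation p = 0.5, n = 2 against 3, where 0.1 is the smallest value possible). The sign turned without Polr_2048 wild type 1 (-0.0205).

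Genes of tissues at the edge of the telencephalon differed between samples as well as between sets. Choroid plexus genes had a median of 0.46, with 21 of 24 higher and 10 of 24 (41.7%) apart against 13.7% of all genes, and the median was 0.23 without Polr_2048 wild type 3. Ttr, the thyroid hormone carrier made by this epithelium, was at 5.50 and 5.47 in set Polr_2048 and at 6.42, 6.32 and 6.82 in set Polr_2138 (difference 1.03, SE 0.27, limma adjusted p = 0.472), and Kcne2, a potassium channel subunit, at 0.45 and 0.93 against 2.25, 2.39 and 2.88. A joint list held genes of the cortical hem, the dorsal midline source of Wnt signals next to this epithelium, and of Cajal-Retzius cells. Its median was 0.15, or 0.27 without Polr_2048 wild type 1. Wnt5a was at 4.75 and 5.23 against 5.49, 5.79 and 5.95 (difference 0.75, limma adjusted p = 0.472). Between missense and null the choroid plexus median was 0.03 and that of the hem and Cajal-Retzius list -0.25. The signs of the lists were thus not the same in both comparisons.

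Microglial genes had a median of 0.37, with 20 of 24 higher and 11 (45.8%) apart, against 13.7% of all genes. Csf1r, the growth factor receptor of these cells, was at 3.75 and 3.96 in set Polr_2048 and at 4.39, 4.33 and 4.59 in set Polr_2138 (difference 0.58, limma adjusted p = 0.472). Endothelial genes had a median of 0.18, or 0.11 without Polr_2048 wild type 1, and 9 of 35 (25.7%) were apart, against the same 13.7%. Mesenchymal and meningeal genes had a median of 0.20, yet Polr_2138 wild type 2 was the lowest of the 5 wild types over this list, at a mean deviation of -0.35, against 0.27 and 0.41 for Polr_2138 wild types 1 and 4. The list's median was 0.37 without Polr_2138 wild type 2 and 0.07 without Polr_2138 wild type 4. Col1a1, a collagen of connective tissue, was at 9.23 and 9.03 against 9.72, 9.37 and 10.12. Genes of diencephalon, eye and midbrain had their highest mean deviation in Polr_2138 wild type 1 (0.53) and their lowest in Polr_2048 wild type 3 (-0.43). Between missense and null, which differ in allele as well, all 4 of these lists had medians below 0. They were -0.15 for microglial (17 of 24 lower), -0.12 for endothelial, -0.05 for mesenchymal and meningeal, and -0.42 for diencephalon, eye and midbrain genes. The part of such tissue differences in the neuronal and cell cycle values was not tested.

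**Figure D5:**
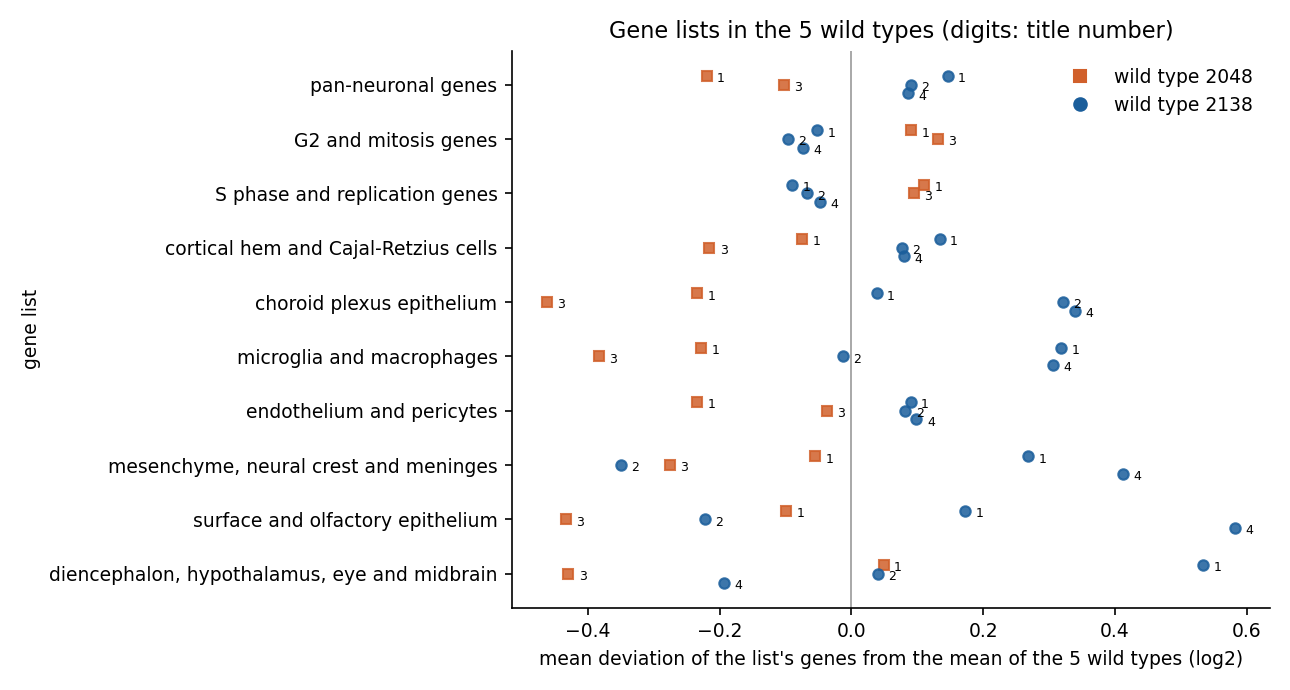
Mean log2 deviation of the genes of 10 lists from the mean of the 5 wild types, 1 point per wild type with its title number. The neuronal, G2, S phase, hem and Cajal-Retzius, choroid plexus, microglial and endothelial lists separate the sets. The mesenchymal, surface epithelium and diencephalon lists overlap between the sets. Mesenchymal genes range from -0.35 in Polr_2138 wild type 2 to 0.41 in Polr_2138 wild type 4.

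Lists tied to the studied pathway had medians near 0 over all 5 wild types. Genes of RNA polymerase I and ribosome biogenesis had a median of -0.06 (27 of 42 lower), p53 targets of -0.03 (23 of 42 lower), and ribosomal protein genes of -0.03 (49 of 78 lower). The last value rests on single samples, at -0.30 without Polr_2048 wild type 3 and 0.18 without Polr_2048 wild type 1. The 3 called ribosomal protein genes, Rpsa, Rps3a1 and Rpl15, were higher in set Polr_2138. The list of genes known to vary in sequence or copy number among laboratory mouse strains had a median of 0.15 (0.02 without Polr_2048 wild type 3 and 0.06 with quantile normalization), with 20 of 29 higher and 1 called, the pseudogene Gm3608. Earlier results of these data had already named Gm3608, so nothing is read from its call in this list.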

How the data were processed

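The deposited file holds 1 value per gene and sample on a log2 scale. Per the file's own name, these were filtered and normalized by the authors. From the values, each sample's back-transformed sum is 1000453 to 1000891 and all share a floor of -3.16, as for log2 CPM with an offset of 0.112; depth is unknown and no counts could be recovered. The build is GRCm39, per the submitters' processing notes; for aligner, counter and annotation no source used here gives a name. Of 14797 genes, 1 has no name and was left out.

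With limma 3.58.1 (R 4.3.3), 14796 genes were fitted on the deposited log2 scale by a linear model of 4 groups (title set by genotype), using a variance trend, 6 residual and 4.83 prior degrees of freedom and Benjamini-Hochberg adjustment. All 10 samples entered, so that the groups share an estimate of spread. Tests were 2-sided, and the fit was tested on simulated data. Families came from blastn 2.17.0 on GENCODE M21 transcripts, in which 14709 genes had a transcript. Their levels were summed on the linear scale. Lists are described by counts and medians, without a test. The rule for named genes took Polr1a, the largest called differences in each direction, up to 4 genes of each list by p, the globins and Y-linked genes, and Rpl15, Rpl34 and Gm3608. Copies of called genes outside the rule, their parents, Gm15459, Hspa8, the exceptions named within a list and its best known members were chosen after their values were seen. The members and lists were chosen with earlier results of these data known. Alternatives were other scalings, filters, variance models, sample weights, a Y-linked covariate, the wild types alone, gene classes left out, families summed and each sample left out. The data.table package was 1.17.8; pandas 2.3.3 was used, and figures matplotlib 3.10.9 in Python 3.11.15. The values of some genes are not reported here.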

Additional observations from a re-analysis of the deposited data

Results flagged for a closer look

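Groups of 2 and 3 samples are too small for a test of outlying samples. In 2 genes the test of the difference itself separated missense minus null from the wild types of set Polr_2138 minus set Polr_2048. For Rpl34, of the large ribosomal subunit, the difference between the comparisons was -3.29 (limma adjusted p = 0.00425): Rpl34 stood at 8.55 and 8.45 in the Polr_2048 wild types, at 7.71, 7.60 and 7.86 in the Polr_2138 wild types, at 8.32 and 7.75 in the null and at 4.19, 3.53 and 4.16 in the missense samples. Its copy Rpl34-ps1 was highest in the missense samples, at 6.62 to 7.19, and the sum of the pair gave a difference between comparisons of -0.67 (limma adjusted p = 1.0). The sum still differed by -1.10 between missense and null (limma adjusted p = 0.0314), against -0.43 between wild types (limma adjusted p = 0.575). For Dlx1, a homeobox gene of ventral telencephalon, the difference between the comparisons was 1.06 (limma adjusted p = 0.0323). Dlx1 was at 7.99 to 8.16 in the 5 wild types, at 6.62 and 6.81 in the null samples and at 7.66 to 7.77 in the missense samples.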

How the results depend on the processing

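No paired analysis was possible because the wild types of the sets share only 1 title number and the mutants none. The count of 14 genes called between wild types became 8 with genes under the 25th percentile left out, 1 without predicted models, pseudogenes and ribosomal protein genes, and 0 with families summed. It was 7 to 21 when each sample was left out in turn, lowest without Polr_2138 wild type 1, 9 without Polr_2138 wild type 4 and highest without Polr_2048 wild type 3. The 21 calls of missense minus null became 10 without those gene classes and 11 with families summed, and 20 (8 higher and 12 lower) with the mutants fitted alone, and were 12 to 29 with samples left out, at 12 without Polr_2138 wild type 1 and without missense sample 7. The globin difference ran from -0.0205 without Polr_2048 wild type 1 to 0.28 without Polr_2048 wild type 3 with samples left out, and was 0.37 as a difference of means of log2 values (exact 2-sided permutation p = 0.3). Rpsa-ps10, Rps3a2, Rps3a3 and Gm3608 passed in every alternative run that tested them. Of the 10 fits that each left out 1 sample, Rps3a1, Gm6472 and Gm7334 passed in 10, Phgdh in 8, Rpsa in 7, Gm11868 in 6, Rpl15 in 5, Gm10020 and Gm3558 in 2 and Hdac5 in 1, with the direction of each kept. Medians of the pan-neuronal, G2 and S phase lists kept their sign when each wild type was left out, at 0.18 to 0.29, -0.20 to -0.13 and -0.21 to -0.16. The depth is unknown, so no limit from counting can be given for genes near the floor.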

Other observations

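Of mitochondrial messages, mt-Co3 had a difference of 0.64 (10.60 and 10.45 against 10.85, 11.49 and 11.14; limma adjusted p = 0.488), while the list's median was 0.00. As mt-Co3 belongs to a family of 2 near-identical transcripts, its own level is uncertain.

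Of immediate early and heat shock genes, 16 of 32 were higher and 16 lower, with a median of -0.01, and 0 were called. The 4 of smallest p were chaperones with lower values in set Polr_2138. Hspd1 and its partner Hspe1, which fold proteins in mitochondria, differed by -0.21 and -0.37, the latter by -0.06 without Polr_2048 wild type 1 and by -0.69 without Polr_2048 wild type 3. Hsph1 differed by -1.23, at 3.90 and 3.81 against 2.97, 1.68 and 3.22 (limma adjusted p = 0.576), or by -0.76 without Polr_2138 wild type 2. Of cholesterol synthesis genes 16 of 24 were lower and 6 (25%) lay apart and lower, against 9.76% of all genes, with a median of -0.05.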
